A study of Homo sapiens with 17 samples.

Results

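Open chromatin in HepG2 cells after 10 µM 5-azacytidine was compared with open chromatin after 2 µM, over every ATAC-seq peak with deposited read counts. The comparison holds 58372 of the 63621 peaks of the study's consensus set, each with the gene and gene part the authors annotated, and 5 of its 8 ATAC-seq libraries, 2 at 10 µM and 3 at 2 µM. HepG2 is a human liver carcinoma line, labelled wild type, and all groups were kept for 4 days at their dose with the medium replaced daily. Both groups of the comparison had thus received the drug, at 10 µM and at 2 µM. The study also holds 3 untreated ATAC-seq libraries (0 µM), which served the estimate of spread and are given as levels, and 9 RNA-seq libraries, 3 per dose. Replicates are described as biological, with no word on separate cultures, so a p-value here measures the spread between these libraries only. In a bulk assay, fewer cells open at a site and less opening per cell cannot be told apart.

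ATAC-seq uses a transposase that inserts sequencing adapters where DNA is not wrapped in nucleosomes, so reads pile up at active promoters and enhancers. 5-Azacytidine is a cytidine analogue that enters RNA and DNA and traps DNA methyltransferases, which leads to loss of methylation at CG dinucleotides as cells divide. Promoters rich in CG are mostly unmethylated in any tissue, while CG-poor promoters and enhancers depend more on cell type and on factors such as HNF4A and FOXA in liver cells or AP-1, the JUN and FOS dimer that responds to stress and growth signals.

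The libraries at 10 µM held 7864321 and 4699599 reads in peaks, and those at 2 µM held 2907068, 2896671 and 7042886. A level is given as CPM, the read count scaled to the library's size with TMM correction. It stands per library or as mean ± SD (n = 2 at 10 µM, n = 3 at 2 µM and at 0 µM, and n = 3 at each dose for RNA), and 1 count was worth 0.134 to 0.218 CPM at 10 µM and 0.136 to 0.344 CPM at 2 µM. A change is the log2 ratio of 10 over 2 µM with its SE, and "rose" or "fell" is used only where the adjusted p of edgeR's quasi-likelihood test was under 0.05. The 2 libraries at 10 µM correlated at 0.942 over peaks in log2 CPM, and those at 2 µM at 0.914 to 0.937. A chi-square of the difference between replicates, per peak, was 3.07 at 10 µM. It was 1.34 to 1.94 at 2 µM and 1.48 to 2.20 at 0 µM, so by this measure the libraries at 10 µM differed most. Both measures depend on depth, so the correlations do not rank the doses by agreement. Libraries of 10 µM correlated with those of 2 µM at 0.38 to 0.527. Summed RNA of 10 hepatocyte markers was 1309 to 2327 CPM at 10 µM and 14700 to 27900 CPM at 2 µM, with none at 0 at either dose. Leukocyte markers summed to 60.7 to 100.4 CPM at 10 µM and 1105 to 1755 CPM at 2 µM, nearly all of it LYZ, and 3 of the 6 were at 0 at both doses. Fibroblast and stellate markers (10.8 to 17.2 CPM at 10 µM against 27.9 to 53.2 CPM at 2 µM) and endothelial markers (4.05 to 10.0 CPM at 10 µM against 12.2 to 20.6 CPM at 2 µM) were low at both doses. Cholangiocyte markers, mainly KRT19, summed to 555 to 1290 CPM at 10 µM and 521 to 976 CPM at 2 µM, and neural markers to 5.66 to 8.77 CPM at 10 µM and 3.95 to 4.61 CPM at 2 µM. The part of these markers in the results was not tested.

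The sequences of 7 promoters whose peaks are described further on are shown here, for the motif or the CG content that the results on promoters refer to, each as the 250 bases before the gene's RefSeq start on the gene's strand (RefSeq, GRCh38.p14). In the first 3, which rose, capitals mark TGANTCA, the AP-1 motif. They are CPA4 (chr7:130292911-130293160, plus strand), ADGRF4 (chr6:47698330-47698579, plus strand) and EMP1 (chr12:13196476-13196725, plus strand), and each holds the motif at 2 places. In the next 2, which fell, capitals mark CAAAGTCCA, a motif of HNF4A, or its reverse complement. They are LEAP2 (chr5:132873418-132873667, plus strand) and AHSG (chr3:186612810-186613059, plus strand). In the last 2, BCL2A1 (chr15:79971197-79971446, minus strand) and SQOR (chr15:45634779-45635028, plus strand), the genes of the study's title, capitals mark each CG, of which BCL2A1 has 2 and SQOR 24.
CPA4: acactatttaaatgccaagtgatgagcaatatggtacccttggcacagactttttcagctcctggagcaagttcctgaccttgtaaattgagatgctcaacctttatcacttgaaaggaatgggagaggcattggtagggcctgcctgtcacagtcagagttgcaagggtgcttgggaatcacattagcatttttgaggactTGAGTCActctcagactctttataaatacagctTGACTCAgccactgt
ADGRF4: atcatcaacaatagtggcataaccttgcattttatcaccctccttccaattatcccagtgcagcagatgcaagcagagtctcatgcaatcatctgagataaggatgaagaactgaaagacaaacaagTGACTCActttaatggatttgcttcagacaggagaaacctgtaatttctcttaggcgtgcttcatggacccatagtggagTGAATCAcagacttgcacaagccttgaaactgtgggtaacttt
EMP1: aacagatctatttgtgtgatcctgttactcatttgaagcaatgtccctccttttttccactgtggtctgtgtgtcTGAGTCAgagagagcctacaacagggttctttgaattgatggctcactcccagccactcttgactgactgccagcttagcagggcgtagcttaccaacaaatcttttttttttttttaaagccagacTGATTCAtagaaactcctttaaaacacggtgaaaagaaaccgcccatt
LEAP2: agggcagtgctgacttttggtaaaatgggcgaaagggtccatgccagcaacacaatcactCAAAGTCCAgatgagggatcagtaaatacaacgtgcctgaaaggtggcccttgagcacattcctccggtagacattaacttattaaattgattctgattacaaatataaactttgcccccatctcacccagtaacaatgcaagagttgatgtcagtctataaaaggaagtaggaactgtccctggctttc
AHSG: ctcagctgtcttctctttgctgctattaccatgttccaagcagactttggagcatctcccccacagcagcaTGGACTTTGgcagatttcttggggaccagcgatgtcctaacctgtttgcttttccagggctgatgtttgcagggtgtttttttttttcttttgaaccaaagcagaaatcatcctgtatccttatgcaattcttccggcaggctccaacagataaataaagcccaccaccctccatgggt
BCL2A1: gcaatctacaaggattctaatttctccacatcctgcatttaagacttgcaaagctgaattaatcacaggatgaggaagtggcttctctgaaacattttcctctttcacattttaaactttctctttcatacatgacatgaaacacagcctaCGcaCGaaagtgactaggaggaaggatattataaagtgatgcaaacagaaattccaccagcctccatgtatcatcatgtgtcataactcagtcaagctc
SQOR: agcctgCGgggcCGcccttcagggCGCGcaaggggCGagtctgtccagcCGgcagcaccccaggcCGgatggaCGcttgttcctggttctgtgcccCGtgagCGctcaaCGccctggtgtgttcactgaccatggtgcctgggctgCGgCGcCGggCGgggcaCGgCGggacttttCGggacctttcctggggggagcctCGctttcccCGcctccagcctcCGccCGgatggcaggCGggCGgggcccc

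Most of the peaks differed between the doses, in nearly equal numbers each way. At 10 µM 16069 peaks were higher (27.5% of the 58372 tested) and 16097 were lower (27.6%), while 26206 did not pass. Among the higher peaks 15415 had no overlap between the libraries of the doses, and among the lower peaks 15830. Lack of overlap goes with passing the test, so these counts add no support of their own. The same count over all peaks was not made. Changes of at least 1 on the log2 scale were found in 7700 higher and 9687 lower peaks, of at least 2 in 2296 and 2919, and of at least 4 in 21 and 32. The peaks that rose had median levels of 6.88, 9.53 and 20.3 CPM at 0, 2 and 10 µM, and those that fell had 14.7, 14.7 and 6.18 CPM. A total of 358 peaks averaged at least 10 CPM at 10 µM and under 2 CPM at 2 µM, and 450 peaks the reverse. In the consensus set each peak carries the name of the list of 1 dose. Of the 22732 peaks named from the 10 µM list 67.1% rose and 0.0308% fell, of the 16805 named from the 2 µM list 1.21% rose and 42.7% fell, and of the 18835 named from the 0 µM list 3.31% rose and 47.3% fell. The direction of a peak thus went with the list it was named from, and the part of the lists in the counts was not tested.

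With changes of any size counted, promoter peaks rose more often than they fell, and the other peaks fell more often than they rose. Of the 19763 promoter peaks 24.5% rose and 13.7% fell, with a median change of 0.18, and of the 38609 other peaks 29.1% rose and 34.7% fell, with a median of -0.10. Peaks that covered a gene's start rose in 26.1% and fell in 10.4% of 14761 cases. From 1 to 3 kb the shares were 23.3% and 38.8%, from 3 to 10 kb 26.9% and 40.7%, and beyond 50 kb 48.2% and 29.1%, with a median of 0.37. Under loess scaling the shares beyond 50 kb were 33.1% and 29.7% (median 0.14), and among peaks with a mean of at least 30 counts 41.9% and 32.4% (median 0.12). Peaks the authors placed in 3′ UTRs had the largest share that fell, 49.6% of 2514, and 15.6% of them rose. The rises at promoters were small, and their number moved with the scaling and with 1 library. Scaled to total counts, 17% of promoter peaks rose and 15.9% fell, and without replicate 1 at 10 µM, the deepest library, 11% of the peaks that covered a start rose and 7.78% fell. The list a peak was named from differed by position too, since 52.3% of the peaks beyond 50 kb were named from the 10 µM list, against 37.6% of all peaks outside promoters, and 51.0% of the 3′ UTR peaks from the 2 µM list.

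**Figure D1:**
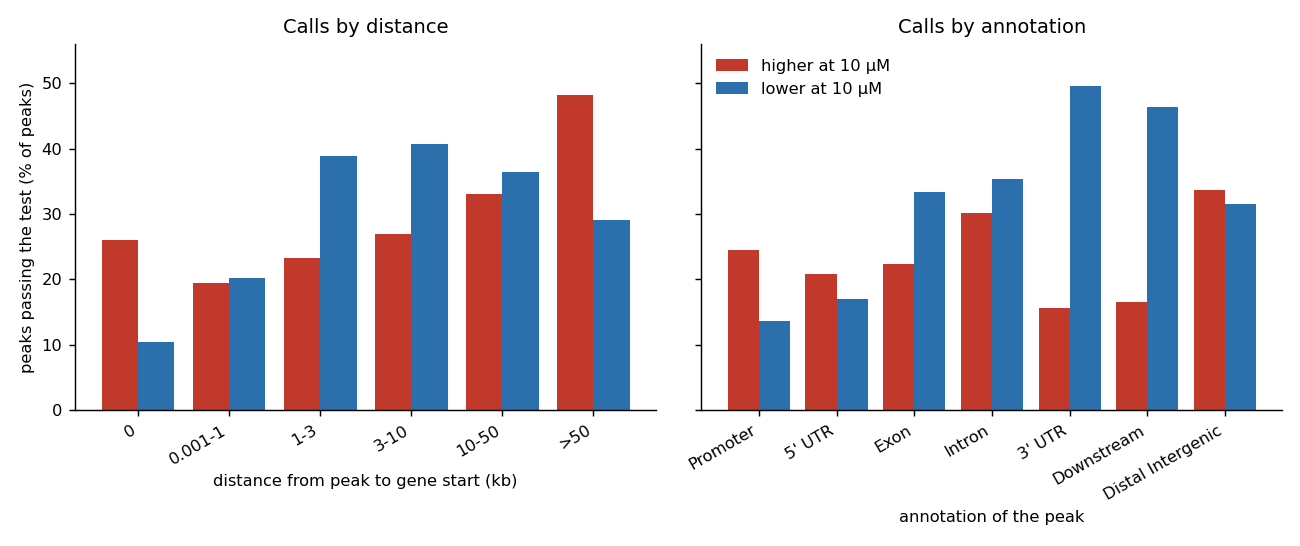
Percentage of peaks higher (red) and lower (blue) at 10 µM than at 2 µM, by distance from the peak to the gene start in kb (left) and by the authors' annotation (right). With changes of any size counted, peaks that covered a start were more often higher (26.1%) than lower (10.4%). Peaks at 1 to 10 kb and in 3′ UTRs were more often lower, and peaks beyond 50 kb more often higher (48.2%).

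The largest promoter rises were at peaks with low levels at 2 µM. SFTA3, a gene expressed in lung, had 37.2 and 26.3 CPM at 10 µM and 3.09, 2.06 and 3.14 CPM at 2 µM in the peak at chr14:36478658-36479158, a change of 3.47 ± 0.25 (SE, adjusted p = 2.7e-12). Peaks with the largest changes were named only where the libraries did not overlap. For SFTA3 the change was 2.21 under a scaling that bends with the level of a peak (loess). MAP3K20, a kinase of the stress response to stalled ribosomes, had 27.9 and 35.7 CPM at 10 µM and 3.78, 5.16 and 4.09 CPM at 2 µM (2.87 ± 0.22, adjusted p = 1.05e-11). Its RNA rose too, to 108 ± 7.94 CPM at 10 µM, against 44.8 ± 11.9 CPM at 2 µM (n = 3 each). HDAC9, a class IIa histone deacetylase, averaged 22.3 ± 1.03 CPM at 10 µM and 3.34 ± 1.29 CPM at 2 µM (2.84 ± 0.26, 1.5 under loess), and its RNA rose by 1.92 ± 0.56. LINC02831, a long non-coding RNA, had 49.2 and 41.5 CPM at 10 µM and 3.78, 5.16 and 4.09 CPM at 2 µM (3.41 ± 0.20, 2.52 under loess). NREP and FBN2, the fibrillin-2 gene, changed by 2.99 and 3.21, but by 0.95 and 0.66 under loess, where FBN2 did not pass (adjusted p = 0.117). NREP RNA went the other way, with 1.75 ± 0.43 CPM at 10 µM and 44.8 ± 8.26 CPM at 2 µM (n = 3 each).

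Further promoter rises are given for HRH1, ADGRF4, CPA4, EMP1 and PLAU, of which HRH1, CPA4 and EMP1 lie outside the naming rule and were named after their values were seen. HRH1, the histamine H1 receptor, had 54.6 and 57.4 CPM at 10 µM and 11.3, 11 and 10.9 CPM at 2 µM (2.34 ± 0.17, adjusted p = 3.7e-12). The spread within each dose was far smaller than the gap between them, and over 0, 2 and 10 µM the means were 4.13, 11.1 and 56 CPM. ADGRF4, an adhesion receptor, averaged 39.7 ± 3.46 CPM at 10 µM and 7.88 ± 0.58 CPM at 2 µM (2.31 ± 0.20), and its RNA rose by 2.64 ± 0.57, with 2.65 ± 1.08 CPM at 10 µM and 0.42 ± 0.23 CPM at 2 µM. The carboxypeptidase gene CPA4 averaged 26.2 ± 1.67 CPM at 10 µM and 5.12 ± 1.29 CPM at 2 µM (2.46 ± 0.23, 1.61 under loess). EMP1, an epithelial membrane protein, averaged 34.9 ± 5.42 CPM at 10 µM and 9.17 ± 1.30 CPM at 2 µM (1.96 ± 0.20). RNA of HRH1, CPA4 and EMP1 did not pass between the doses, with changes of 1.00 ± 0.57, 0.02 ± 0.50 and 1.39 ± 0.56. PLAU, the urokinase gene, rose at its promoter by 1.82 ± 0.23 (21.4 ± 2.01 CPM at 10 µM against 5.46 ± 2.07 CPM at 2 µM), while its RNA was 17.4 ± 5.00 CPM at 10 µM and 18.2 ± 6.72 CPM at 2 µM.

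Among promoters that were already open, PIGT had the largest rise of those the naming rule took by level. PIGT encodes a subunit of the enzyme that attaches GPI anchors to proteins. Its peak at chr20:45419386-45419886 had 95.3 and 120 CPM at 10 µM and 33, 40.2 and 29.5 CPM at 2 µM (1.67 ± 0.15, adjusted p = 1.8e-10). The means over 0, 2 and 10 µM were 7.84, 34.2 and 108 CPM, yet PIGT RNA was 79.3 ± 3.26 CPM at 10 µM and 83.5 ± 18.2 CPM at 2 µM and did not pass. ITPRIP, which binds the inositol trisphosphate receptor, had 92.8 and 89.6 CPM at 10 µM and 35.4, 38.5 and 36.6 CPM at 2 µM (1.31 ± 0.14), and its RNA rose by 2.03 ± 0.25. Outside promoters, an intergenic peak near LPIN3, a phosphatidate phosphatase, averaged 105 ± 5.84 CPM at 10 µM and 48.8 ± 3.40 CPM at 2 µM, and an intronic peak of MTHFD1L, an enzyme of mitochondrial folate metabolism, 98.7 ± 5.52 CPM at 10 µM and 43.5 ± 6.44 CPM at 2 µM. Some of the most open promoters were level. PA2G4 averaged 86.2 ± 6.30 CPM at 10 µM and 91.5 ± 12.5 CPM at 2 µM, COQ10B 121 ± 8.16 CPM at 10 µM and 117 ± 19.8 CPM at 2 µM, and DHRS4 107 ± 4.39 CPM at 10 µM and 109 ± 13.3 CPM at 2 µM, each with overlapping libraries.

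The largest promoter falls left few reads at 10 µM. TTLL4, a tubulin polyglutamylase, had 4.16 and 3.92 CPM at 10 µM and 72.9, 75 and 60.6 CPM at 2 µM at chr2:218745796-218746296 (-4.07 ± 0.21, adjusted p = 9.34e-15). That was the smallest adjusted p of the named peaks, yet TTLL4 RNA was 63.3 ± 6.26 CPM at 10 µM and 77.6 ± 5.56 CPM at 2 µM and did not pass. TNFSF14, the cytokine LIGHT, averaged 0.69 ± 0.36 CPM at 10 µM and 17.5 ± 5.03 CPM at 2 µM (-4.45 ± 0.42), and its RNA fell as well. FRY, a microtubule-binding protein, averaged 0.65 ± 0.61 CPM at 10 µM and 11.8 ± 2.92 CPM at 2 µM (-3.94 ± 0.40), with an RNA change of -2.85 ± 0.40. NRDE2, a nuclear RNA factor, averaged 1.58 ± 0.53 CPM at 10 µM and 24.8 ± 3.47 CPM at 2 µM (-4.00 ± 0.29), while its RNA rose by 1.08 ± 0.17. A few of these peaks were highest at the middle dose. TNS3, a focal adhesion protein, had means of 6.75, 29.0 and 2.42 CPM over 0, 2 and 10 µM, NRDE2 8.64, 24.8 and 1.58 CPM, and the histone gene H3C12 1.67, 14.2 and 2.37 CPM. Outside promoters the same scale was seen at a peak annotated to SELENOP, the plasma selenium carrier, with 0.27 and 1.74 CPM at 10 µM and 28.2, 21.7 and 14.3 CPM at 2 µM (-4.56 ± 0.48). Its RNA averaged 27.3 ± 3.61 CPM at 10 µM and 806 ± 332 CPM at 2 µM (-4.88 ± 0.35). The largest rises outside promoters, in introns of SGCD and ARHGAP24, rested on 154 counts against 3 and on 155 against 5 over the libraries of 10 µM and 2 µM. Their changes of 5.70 and 5.01 were 2.13 and 1.77 under loess.

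**Figure D2:**
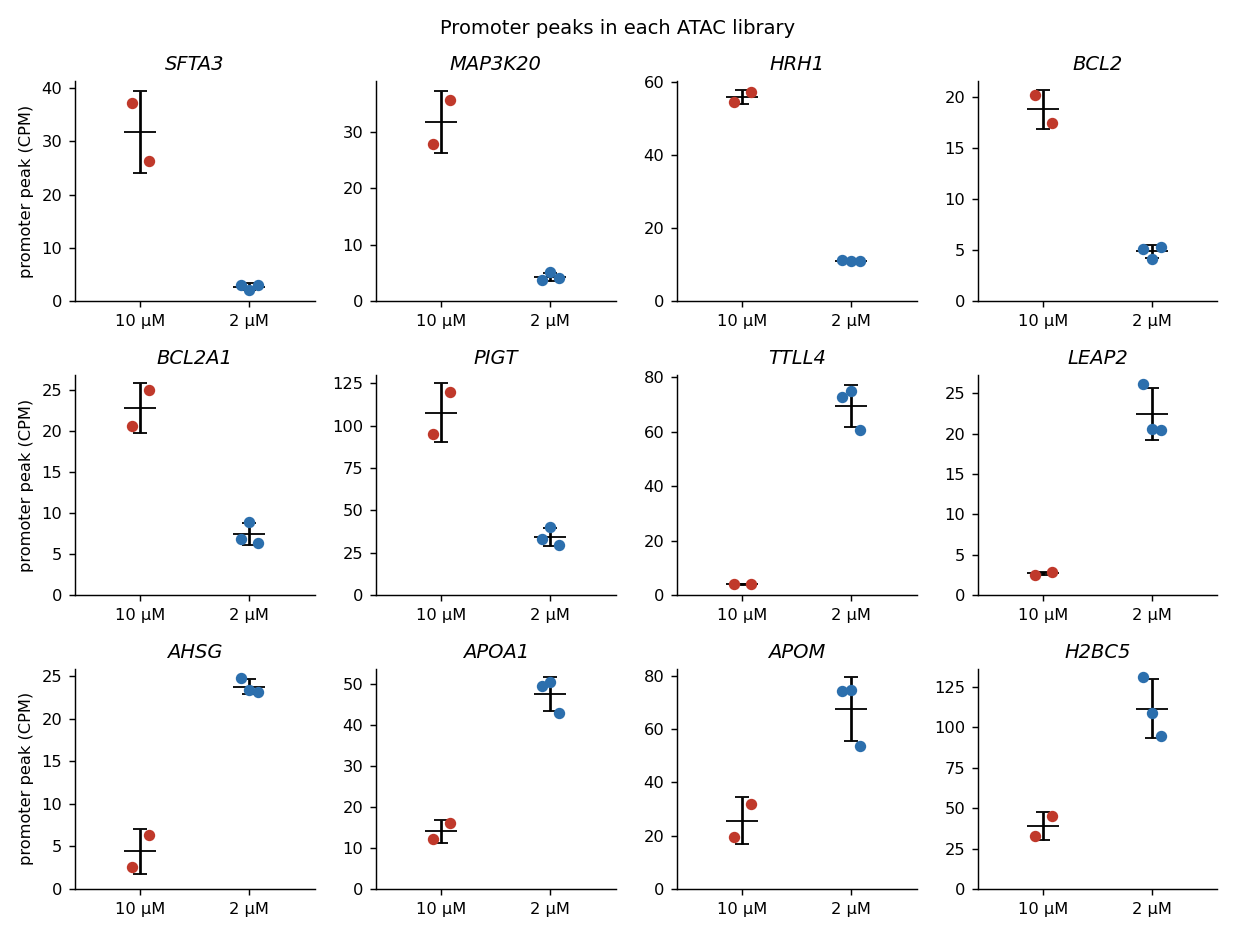
Level of 12 promoter peaks in CPM (vertical axes, each from 0) in the 2 libraries at 10 µM (red) and the 3 at 2 µM (blue), with bars for mean and SD. The libraries of the doses do not overlap in any of the 12, which the choice of the peaks largely fixed. TTLL4 (4.16 and 3.92 CPM at 10 µM against 60.6 to 75 CPM at 2 µM) has the widest ratio.

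Of the genes in the study's title, BCL2A1 rose at its promoter and at 2 further peaks and fell at the fourth. BCL2A1 encodes BFL-1, a protein that blocks cell death, and its promoter peak had 20.7 and 25 CPM at 10 µM and 6.87, 8.94 and 6.41 CPM at 2 µM (1.65 ± 0.22, adjusted p = 1.24e-07). The intronic peak rose by 0.93 ± 0.21 and a peak 22548 bp from the start by 1.25 ± 0.29, which loess reduced to 0.25 (adjusted p = 0.452). A second distal peak, at chr15:79978955-79979455, fell by 1.06 on the log2 scale, to 6.57 and 9.13 CPM at 10 µM, against 15.8, 16.5 and 15.8 CPM at 2 µM. BCL2A1 RNA was 10.7 ± 3.52 CPM at 10 µM and 7.21 ± 4.56 CPM at 2 µM and did not pass. SQOR, a mitochondrial enzyme that oxidises sulfide, rose at an upstream promoter peak (27.0 and 27.6 CPM at 10 µM, 9.97, 12 and 9.68 CPM at 2 µM, 1.39 ± 0.21) and at an intronic peak (1.59 ± 0.23). The SQOR promoter peak whose CG-rich sequence is printed above was level, with 31.7 and 26.5 CPM at 10 µM and 30.6, 32.3 and 31.4 CPM at 2 µM (-0.10 ± 0.15, adjusted p = 0.603), and the remaining 3 SQOR peaks did not pass. In the BCL2 family 8 of 18 promoters rose and none fell, against 27.4% and 9.2% of the 12397 promoter peaks nearest to each gene's start. Without replicate 1 at 10 µM 4 of the 18 rose. BCL2 itself, the founding member, had 20.1 and 17.4 CPM at 10 µM and 5.15, 4.13 and 5.32 CPM at 2 µM (1.92 ± 0.25, 0.86 under loess), and BCL2 RNA was 5.13 ± 0.41 CPM at 10 µM and 5.37 ± 1.71 CPM at 2 µM.

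Genes of secreted liver proteins fell at most promoters and at most peaks inside and around the genes. In this list 27 of 37 promoters fell and none rose, with a median change of -0.86 against 0.23 over all genes, and of its 146 other peaks 101 fell and 11 rose, with a median of -1.49. The background was 9.2% lower and 27.4% higher over the 12397 promoter peaks nearest to each gene's start, and 34.7% lower and 29.1% higher outside promoters. Over 1.5-fold 18 of the 37 promoters fell, and scaled to total counts 31 did. RNA of 43 of the 44 genes measured fell, against 21.6% of 18999 genes tested over the genome (16.8% rose). LEAP2, a liver peptide that blocks the ghrelin receptor, had 2.55 and 2.83 CPM at 10 µM and 26.1, 20.6 and 20.5 CPM at 2 µM at its promoter (-3.04 ± 0.24, adjusted p = 1.73e-11). AHSG, the gene of fetuin-A, had 2.55 and 6.31 CPM at 10 µM and 24.7, 23.4 and 23.2 CPM at 2 µM (-2.53 ± 0.25). The libraries at 2 µM were close to each other in both genes, and none at 10 µM came near them. That gap went with the naming rule, which took peaks by change or adjusted p. APOA1, the main protein of HDL, averaged 14.1 ± 2.84 CPM at 10 µM and 47.7 ± 4.10 CPM at 2 µM (-1.77 ± 0.17), APOC3 6.0 ± 0.13 CPM at 10 µM and 22.9 ± 0.51 CPM at 2 µM (-1.94 ± 0.21), APOM 25.5 ± 8.79 CPM at 10 µM and 67.5 ± 11.9 CPM at 2 µM (-1.41 ± 0.18), and the thyroxine carrier TTR 1.99 ± 0.04 CPM at 10 µM and 8.89 ± 3.31 CPM at 2 µM (-2.09 ± 0.34). SERPINA1, the antitrypsin gene, fell less at its promoter (31.7 ± 0.66 CPM at 10 µM against 55.0 ± 3.70 CPM at 2 µM, -0.79 ± 0.15), and its call was lost when a change of over 1.5-fold was asked for.

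Promoters of liver transcription factors differed in both directions. Of 30 such promoters 4 rose and 6 fell, beside 27.4% and 9.2% of the 12397 promoter peaks. Of their 121 other peaks 17 rose and 60 fell, beside 29.1% and 34.7% of all peaks outside promoters. With 1 library left out as few as 2 rose and 3 fell, and over 1.5-fold 0 rose and 1 fell. The promoter peak of HNF4A, a nuclear receptor of hepatocytes, averaged 34.9 ± 2.62 CPM at 10 µM and 45.0 ± 2.26 CPM at 2 µM (-0.35 ± 0.15, adjusted p = 0.0422), a call that 10 of 18 alternatives ended, although HNF4A RNA fell by 1.69 ± 0.21 on the log2 scale. FOXA2 (20.8 ± 1.12 CPM at 10 µM against 23.2 ± 0.61 CPM at 2 µM), given here after its values were seen, did not pass. Cytochrome P450 genes, which oxidise drugs, sterols and bile acid precursors, fell at 10 of 23 promoters and rose at 2. CYP8B1, an enzyme of bile acid synthesis, averaged 2.55 ± 1.32 CPM at 10 µM and 13 ± 3.37 CPM at 2 µM (-2.40 ± 0.31). CYP19A1, the aromatase gene, had 4.56 and 4.57 CPM at 10 µM and 19.2, 15.8 and 11.2 CPM at 2 µM (-1.68 ± 0.27), and CYP2D6, which has near-identical copies that can share reads, averaged 5.18 ± 2.21 CPM at 10 µM and 14.3 ± 1.93 CPM at 2 µM.

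APOB had the run of lower peaks with the most members. APOB and DHRS2 were named for their number of called peaks, so high counts go with that choice. Of all 58372 peaks 27.6% fell and 27.5% rose. APOB encodes the protein of LDL and VLDL, and 45 of its 52 peaks fell, with a median over the 45 of 2.11 CPM at 10 µM and 13.9 CPM at 2 µM. A run of 39 neighbouring peaks that all fell filled chr2:20998339-21038077, with changes between -3.89 and -1.18. The peak with the largest change, at chr2:21011038-21011538, had 0.54 and 1.52 CPM at 10 µM and 21, 12.7 and 10.5 CPM at 2 µM. Next to the start the picture was different. The promoter peak had 35.7 and 37.4 CPM at 10 µM and 56, 51.6 and 48.2 CPM at 2 µM (-0.50 ± 0.15, adjusted p = 0.00536), a call lost over 1.5-fold and without replicate 1 at 10 µM. A peak in intron 4 rose, with 47.5 and 53.3 CPM at 10 µM and 32.0, 23.4 and 24.4 CPM at 2 µM (0.93 ± 0.16). APOB RNA averaged 313 ± 51.4 CPM at 10 µM and 6228 ± 2172 CPM at 2 µM (-4.32 ± 0.30). DHRS2, a mitochondrial reductase, fell in 20 of 25 peaks, and rose in none. The peak 7413 bp past the start had 22.0 and 42.4 CPM at 10 µM and 147, 196 and 82.4 CPM at 2 µM (-2.15 ± 0.26), and DHRS2 RNA fell by 3.32 ± 0.28 on the log2 scale.

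NTSR1 and NABP1 were the counterparts among rises. The genes given here were likewise named for their number of called peaks, which favours high counts. Of all 58372 peaks 27.5% rose and 27.6% fell. NTSR1, the neurotensin receptor, rose in 18 of 20 peaks and fell in none, and its intronic peak at chr20:62736669-62737169 had 54.5 and 54.6 CPM at 10 µM and 13.1, 8.25 and 10.9 CPM at 2 µM (2.34 ± 0.17). The peak at its promoter had 5.50 and 7.18 CPM at 10 µM and 11, 9.28 and 8.32 CPM at 2 µM and did not pass (-0.58 ± 0.26, adjusted p = 0.0589). NTSR1 RNA was 15 ± 0.45 CPM at 10 µM and 5.80 ± 3.05 CPM at 2 µM and rose (1.38 ± 0.47). NABP1, a single-stranded DNA binding protein, rose in 20 of 23 peaks, with RNA at 474 ± 81.1 CPM at 10 µM against 129 ± 38.3 CPM at 2 µM. GRB10, an adaptor of the insulin receptor, rose in 17 of 21 peaks and fell in 3, with an RNA change of 2.22 ± 0.38. Peak counts and RNA did not always go the same way. LTBP1, which binds latent TGF-beta, rose in 11 of 13 peaks with RNA at 6.82 ± 0.49 CPM at 10 µM and 7.41 ± 1.59 CPM at 2 µM, a difference that did not pass. GSE1 fell in 27 of 55 peaks and rose in 11, and its RNA rose by 1.04 ± 0.29.

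**Figure D3:**
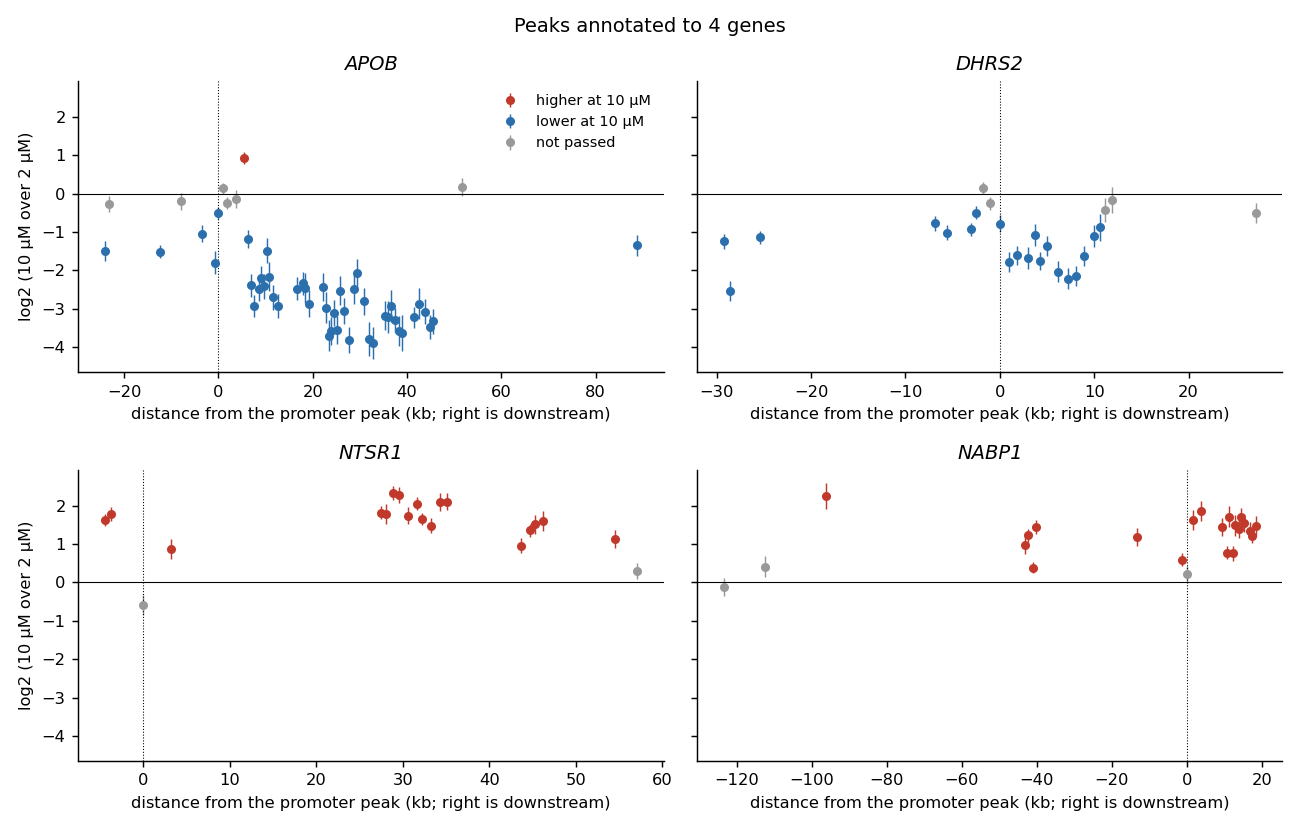
Change of each peak annotated to APOB, DHRS2, NTSR1 and NABP1 (vertical axis, log2 of 10 over 2 µM, bars are the SE) by distance from the promoter peak in kb. At APOB the 45 peaks that fell have a median of -2.86 while the promoter peak lies at -0.50, and at NTSR1 and NABP1 nearly every peak lies above 0.

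Neighbouring peaks tended to move together over short distances. Of 2760 pairs of next neighbours under 500 bp apart and both called, 88.8% had the same direction, and the share was 74.3% at 1 to 2 kb and 57.7% beyond 100 kb. Runs of at least 8 called peaks in 1 direction numbered 47 among rises and 87 among falls. The longest rising runs were 18 peaks at GRB10, 17 from SMNDC1 over DUSP5 to SMC3, 16 in NTSR1, and 15 each over FOSL1 with its neighbours and over BHLHE40. DUSP5, a MAP kinase phosphatase, had 45.3 and 36.1 CPM at 10 µM and 11, 15.5 and 14.6 CPM at 2 µM at its promoter (1.56 ± 0.17, chosen after its value was seen), and its RNA rose by 1.75 ± 0.40. FOSL1, an AP-1 subunit in the run of 15, had a small promoter rise of 0.60 ± 0.15, lost without replicate 1 at 10 µM, and RNA of 26.1 ± 4.30 CPM at 10 µM against 3.81 ± 1.38 CPM at 2 µM. A run of 9 rising peaks, also picked after it was seen, lay at the metallothionein genes MT2A and MT1L. After APOB the longest falling run held 16 peaks at ASPSCR1 and CENPX on chromosome 17. At 4 peaks annotated to MIR3648-2 on chromosome 21, among the most open that fell, the libraries at 10 µM differed by about as much as the doses did, with 28 and 59.6 CPM at 10 µM and 79.7, 88.4 and 91.2 CPM at 2 µM at the first. This region shares sequence with the ribosomal RNA repeats, so its reads are uncertain, while 3 of the 4 calls were lost with DESeq2, and 2 without replicate 1 at 10 µM.

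AP-1 genes, heat shock genes and ribosomal protein genes rose at many of their promoters, by small amounts. AP-1 and MAF factors rose at 11 of 21 promoters and fell at 1, with a median of 0.43, where 27.4% of the 12397 promoter peaks rose and 9.2% fell. With the promoter peak of highest CPM taken for each gene, 8 rose and 2 fell. Outside promoters, 26 of 79 AP-1 and MAF peaks rose and 23 fell. There 9 of 53 heat shock peaks rose and 19 fell, and 12 of 65 ribosomal protein peaks rose and 19 fell. Of all peaks outside promoters 29.1% rose and 34.7% fell, and of all RNA genes 16.8% rose and 21.6% fell. JUN had 58.4 and 53.1 CPM at 10 µM and 32.6, 34.4 and 32.1 CPM at 2 µM (0.76 ± 0.14), with RNA of 303 ± 25.1 CPM at 10 µM and 75.1 ± 21.8 CPM at 2 µM. In all, RNA of 11 of 23 AP-1 and MAF genes rose and of 2 fell. Cytosolic heat shock genes rose at 10 of 20 promoters and fell at none (median 0.41), such as the chaperone HSPA8 with 52.3 ± 11.8 CPM at 10 µM and 31.7 ± 1.63 CPM at 2 µM. Ribosomal protein genes rose at 30 of 59 promoters and fell at none (median 0.42). RPS12 averaged 55.0 ± 3.38 CPM at 10 µM and 29.8 ± 1.74 CPM at 2 µM (0.88 ± 0.15), while its RNA was 525 ± 83.2 CPM at 10 µM and 955 ± 98.9 CPM at 2 µM. RNA went the other way in this list as a whole, with 61 of 76 genes lower and none higher. Without replicate 1 at 10 µM 5 AP-1 and MAF, 5 heat shock and 8 ribosomal promoters rose, and 12% of all promoter peaks did. Over 1.5-fold 4 ribosomal promoters and none of the AP-1, MAF and heat shock promoters passed, and over the promoters of all 34 lists 62 of the 240 calls did.

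Genes of DNA replication and mitosis had few promoters that fell, while their RNA was lower. Of the 12397 promoter peaks 27.4% rose and 9.2% fell, and in RNA 16.8% of 18999 genes rose and 21.6% fell. DNA replication genes rose at 10 of 40 promoters and fell at 1, close to the background of 27.4% higher for rises, and 37 of 44 fell in RNA with a median of -1.65. Mitosis genes rose at 7 of 34 promoters and fell at 1, and 38 of 39 fell in RNA with a median of -3.04. Without replicate 1 at 10 µM the rises were 1 and 4. Replication-dependent histone genes, whose products package new DNA and which have near-identical copies, fell at 8 of 28 promoters and rose at 1. H2BC5 had 32.9 and 45.0 CPM at 10 µM and 131, 109 and 94.7 CPM at 2 µM (-1.52 ± 0.17), and its RNA fell by 2.27 ± 0.36 on the log2 scale. Genes of DNA methylation and its readers rose at 6 of 19 promoters and fell at none, with 1 rise left without replicate 1 at 10 µM.

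Further lists are set against the same background of promoters, 27.4% higher and 9.2% lower. For other peaks the background was 29.1% higher and 34.7% lower, and for RNA 16.8% higher and 21.6% lower. p53 targets rose at 8 of 30 promoters, near that share, and fell at none, and in RNA 9 of 36 rose and 9 fell (median -0.17). PLK2, a kinase among them, averaged 18.8 ± 0.49 CPM at 10 µM and 6.29 ± 0.21 CPM at 2 µM (1.59 ± 0.23), with an RNA rise of 1.66 ± 0.26. CDKN1A, the cell cycle inhibitor p21, had 53.9 and 55.7 CPM at 10 µM and 30.9, 29.6 and 33.4 CPM at 2 µM (0.79 ± 0.15). Keratin, cadherin and mesenchymal genes rose at 6 of 15 promoters and fell at none, while of their 80 other peaks 18 rose and 29 fell (median -0.23). In RNA 4 of 22 rose and 6 fell (median -0.25). KRT15, a keratin of basal epithelium, averaged 52.0 ± 5.57 CPM at 10 µM and 23.1 ± 4.28 CPM at 2 µM, and ZEB2, a repressor of epithelial genes, 17.4 ± 0.56 CPM at 10 µM and 7.80 ± 2.18 CPM at 2 µM, and RNA rose by 2.56 ± 0.55 and 2.48 ± 0.46. Matrix proteases and adhesion genes rose at 6 of 18 promoters and at 43 of 102 other peaks, and fell at 3 and 21. FN1, the fibronectin gene, rose at its promoter by 1.47 ± 0.22 (36.9 ± 6.61 CPM at 10 µM against 13.8 ± 2.89 CPM at 2 µM), while its RNA fell by 1.17 ± 0.39 on the log2 scale. The TEAD and YAP list rose at 6 of 18 promoters and fell at 1, while of 116 other peaks 22 rose and 58 fell. Cholesterol and fatty acid synthesis genes rose at 1 and fell at 1 of 28 promoters, interferon-stimulated genes rose at 3 and fell at 3 of 25 (0 and 5 scaled to total counts, 0 and 3 under loess), and MHC class I genes rose at 4 and fell at 1 of 18, although 14 of 19 MHC class I genes fell in RNA. Without replicate 1 at 10 µM 5 p53, 2 TEAD and YAP and 1 MHC class I promoters rose.

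The CG content of a promoter went with the direction and the size of its change. A RefSeq window of 300 bases around the start overlapped 8318 promoter peaks by at least 150 bases. Windows with at most 3 CG dinucleotides rose in 27.5% and fell in 44.5% of 229 cases, and the quartiles of their changes were -1.06 and 0.61. With 8 to 12 CG the shares were 14.3% and 23.4%, and with 34 or more they were 31.4% and 2.22% of 2433, with quartiles of 0.11 and 0.45. CG-poor promoters thus moved far in both directions, and CG-rich ones by a small amount, with most changes above 0. The classes differed in level too. The medians at 10 and 2 µM were 12.05 and 13.8 CPM with at most 3 CG, and 26.5 and 21.7 CPM with 34 or more. The part of the level in the size of the changes was not tested. Of the 2433 windows with 34 or more CG 1615 did not pass. Small promoter rises moved with the scaling and with 1 library, as given above, and the CG classes were not recounted under those alternatives. The windows of peaks that fell had a median of 9 CG, those of peaks that rose 29, and those that did not pass 27. The promoters printed above show both ends, since the rising CPA4, ADGRF4 and EMP1 windows hold 1, 3 and 4 CG and the falling LEAP2 and AHSG windows 3 each.

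**Figure D4:**
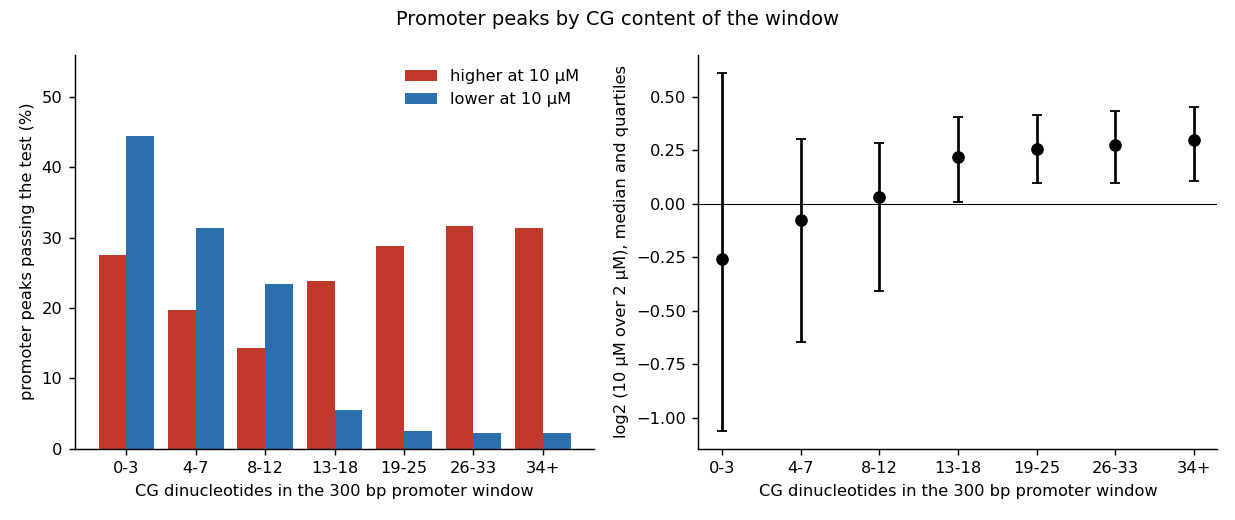
Promoter peaks by the number of CG dinucleotides in the 300-base RefSeq window at the start, as the percentage higher (red) and lower (blue) at 10 µM than 2 µM (left) and as the median change with its quartiles (right, log2 of 10 over 2 µM). The share that fell is 44.5% in the windows with the fewest CG and 2.22% in those with the most.

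Short motifs in the same windows, searched on both strands, differed between rising and falling promoters. The AP-1 motif TGANTCA stood in 7.83% of the windows of rising peaks, 5.09% of falling ones and 4.10% of those that did not pass, against 7.71% of all RefSeq windows. Within windows of under 13 CG, 96 of the 192 that hold it rose and 23 fell, where 19.1% and 30.9% of all 1081 such windows did. The HNF4A motif CAAAGTCCA stood in 0.168% of rising, 3.40% of falling and 0.332% of other windows, against 0.384% of all RefSeq windows. It stands in 40 windows, of which 18 fell and 4 rose, among them LEAP2 and AHSG. The GATA motif AGATAA stood in 4.30% of rising, 9.81% of falling and 3.84% of other windows, and the forkhead motif TGTTTAC in 1.98%, 4.72% and 2.40%, against 10.3% and 3.42% of all RefSeq windows. Within windows of under 13 CG, 36.1% of the 133 with AGATAA and 36.1% of the 61 with TGTTTAC fell, beside 30.9% of all such windows. Motifs that contain CG were all rarer in falling windows, but not all were more frequent in rising than in other windows. GCATGCGC, the core of the NRF1 site, stood in 8.80% of rising, 0.755% of falling and 4.19% of other windows, against 3.05% of all RefSeq windows. TGACGTCA, the cyclic AMP response element, stood in 4.17% of rising, 0.566% of falling and 2.62% of other windows, against 1.85%. The ETS motif CCGGAAG stood in 19.4%, 6.04% and 19.9% of these windows, against 10.3%, and GGGCGG of the SP and KLF factors in 74.3%, 43.2% and 75.8%, against 45.0%. Within windows of at least 13 CG, of which 29.9% rose, 47.8% of those with GCATGCGC and 40.8% of those with TGACGTCA rose, against 30.4% with CCGGAAG and 29.6% with GGGCGG. A match says that these letters stand in the window and nothing of binding.

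Promoter and RNA changes were joined in 10961 genes, where they correlated weakly (Pearson 0.389, Spearman 0.268 across genes, which are not independent and whose RNA came from separate libraries). RNA moved the same way as the promoter in a larger share of the genes whose promoter fell than of those whose promoter rose, where 24.2% of all these genes fell and 20.5% rose in RNA. Of 822 genes whose promoter fell, RNA fell in 59.5% and rose in 6.08%, with a median of -1.48. Of 3052 genes whose promoter rose, RNA rose in 26.9% and fell in 15%, with a median of 0.20, and where the promoter did not pass, RNA rose in 19.4% and fell in 24.1% of 7087. The promoters that rose by at least 1 on the log2 scale had RNA higher in 41.7% and lower in 10.0% of 240 genes. Peaks outside promoters were counted for each gene too. With 5 or more such peaks lower and none higher RNA fell in 64.6% and rose in 5.51% of 127 genes. With 5 or more higher and none lower RNA rose in 42.9% and fell in 9.52% of 42 genes. Where a gene had such peaks but none was called, RNA rose in 17.4% and fell in 23.6% of 1980 genes.

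**Figure D5:**
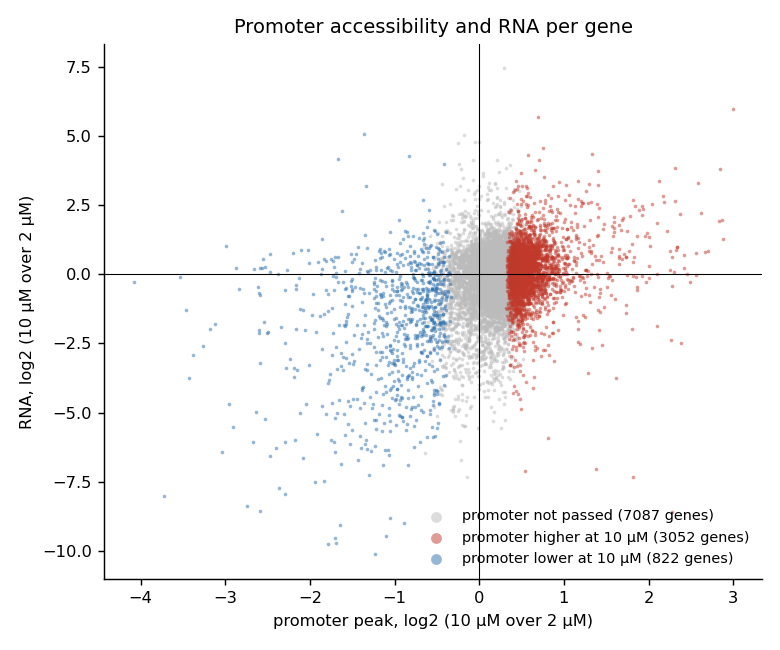
Change of RNA (vertical axis) against change of the promoter peak (horizontal axis), both log2 of 10 over 2 µM, with 1 point per gene coloured by the call of its promoter peak. Genes whose promoter fell (blue) have a median RNA change of -1.48, while genes whose promoter rose (red) spread to both sides of 0, with a median of 0.20.

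Where promoter and RNA both passed but in opposite directions, the naming rule took the following. CCDC85B, a coiled-coil protein, had 72.3 and 90.9 CPM at 10 µM and 29.6, 32.7 and 35.3 CPM at 2 µM at its promoter (1.31 ± 0.15), with RNA at 16.1 ± 7.16 CPM at 10 µM and 32.0 ± 9.75 CPM at 2 µM. PLXNA4, a semaphorin receptor, averaged 21.8 ± 2.72 CPM at 10 µM and 4.57 ± 0.42 CPM at 2 µM at its promoter (a change of 2.27, 1.61 under loess), while its RNA had no count in the 3 libraries at 10 µM and 1.14 ± 0.90 CPM at 2 µM. HADH, an enzyme of fatty acid oxidation, rose by 2.27 ± 0.29 at a peak 553 bp upstream (0.38 under loess, adjusted p = 0.279) with RNA at 4.50 ± 0.85 CPM at 10 µM and 23.2 ± 2.81 CPM at 2 µM. In the other direction JAG1, a Notch ligand, had 5.23 and 9.13 CPM at 10 µM and 28.2, 23.7 and 23.6 CPM at 2 µM (-1.86 ± 0.22), with RNA at 795 ± 152 CPM at 10 µM and 332 ± 15.2 CPM at 2 µM. MAP2K1, the kinase MEK1, averaged 1.27 ± 0.66 CPM at 10 µM and 9.51 ± 1.05 CPM at 2 µM at a peak 126 bp upstream (-2.99 ± 0.35), with RNA at 138 ± 8.03 CPM at 10 µM and 68.4 ± 5.80 CPM at 2 µM. ATP6V0D1, a subunit of the vacuolar proton pump, fell by 2.47 ± 0.23 on the log2 scale at its promoter, and its RNA rose by 0.75 ± 0.26.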

How the data were processed

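Read counts per peak were deposited for 8 ATAC-seq libraries and read counts per gene for 9 RNA-seq libraries of HepG2 cells. The labels' protocols give a Nextera kit for ATAC-seq and a stranded total RNA kit for RNA-seq. Per the submitters' processing notes the tools were DiffBind 3.12.0, HISAT2 2.2.1, HTSeq 2.0.4 and DESeq2 1.42.1 and the build hg38. No source used here names the peak caller. The authors' consensus peak list, deposited with a score per peak that was not tested, holds 63621 peaks of 501 bp, of which 58372 have counts, and the other 5249 are not used here. Gene and gene part are the authors' annotation.

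The counts were scaled by TMM and fitted with edgeR 4.0.16 (limma 3.58.1, R 4.3.3) by the quasi-likelihood F-test, with a mean per dose over all 8 libraries for ATAC-seq and all 9 for RNA-seq, filterByExpr and Benjamini-Hochberg adjustment over all features, with a threshold of 0.05. The SE is the change divided by the square root of F. Alternatives were DESeq2 1.42.0, other scalings, filters, a change of over 1.5-fold, a replicate block, 5 libraries and each library left out. Peaks named were the 10 largest changes per direction with at least 5 CPM and no overlap, in promoters and elsewhere, the 10 per direction with the highest level at a change of at least 1, all BCL2A1 and SQOR peaks, up to 6 promoters per gene list, the 10 genes per direction with the most called peaks, the 10 per combination with promoter and RNA calls, and the 10 highest promoters with a change under 0.1, of which the text gives a part. The members, the 34 gene lists and the sequences shown were chosen with earlier results of these data known. Of 18999 RNA genes 18911 had a symbol. The fit was tested on simulated counts in which few features changed. Most peaks differed in the real data, so that test cannot speak for the scaling. The precision of a level is set by its count, and reads carry no molecular identifiers.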

Additional observations from a re-analysis of the deposited data

How the results depend on the processing

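No called peak among those followed by name changed direction under the alternatives run. When a change of over 1.5-fold was asked for, 8145 peaks were higher and 9924 lower at 10 µM, of which 793 and 1348 were promoter peaks and 7352 and 8576 were others, and 62 promoters of the gene lists passed, against 240 for any change. With 1 library left out, higher peaks numbered 12880 to 15991 and lower peaks 12393 to 16475. Promoter peaks that were higher numbered 2368 to 5536 and lower 2014 to 2719, other peaks 10080 to 11230 and 10379 to 13756, and promoters of the lists 135 to 277. The lowest counts of higher and of lower promoter peaks, and of list promoters called in either direction, came without replicate 1 at 10 µM, which leaves 1 library at that dose, taken to vary like the others. Of 77 called named peaks 72 to 77 passed. RNA genes numbered 2172 to 2847 higher and 3294 to 3891 lower. With a replicate block over all doses 29632 peaks were called, and 27388 with the block over replicates 1 and 2 of both doses, an alternative chosen after seeing the data, against 32166 without it. Libraries of the same number deviated from their dose means with correlations of -0.224 and 0.01. With 2 libraries at 10 µM their deviations mirror each other, so this cannot settle whether the numbers pair the libraries. DESeq2 called 27192 peaks, total counts 31394, with 43.4% of the calls higher, and loess scaling 29952, of which 55 peaks changed direction. At the levels of the lowest peaks 1 count is up to 0.344 CPM, so changes there rest on few reads.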

Other observations

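By gene list further values belong to no comparison above, and stand beside a background of 27.4% of promoter peaks higher and 9.2% lower. In RNA 16.8% of all genes were higher and 21.6% lower. Genes of sulfide and sulfur amino acid metabolism rose at 7 of 24 promoters and fell at 1 (3 rose without replicate 1 at 10 µM), and 13 of 27 fell in RNA. Genes often methylated in liver cancer rose at 4 of 21 promoters and fell at 1, and imprinted genes rose at 4 of 19 and fell at 1, and 2 of each list rose without replicate 1 at 10 µM. Cancer-testis and germline genes, which 5-azacytidine is known to switch on in many cell lines, had 6 promoter peaks, of which 2 rose and 2 fell, and 3 of 19 rose and 6 fell in RNA. Proteasome genes rose at 7 of 25 promoters (as few as 3 with 1 library left out) and fell at none, and 6 of 30 rose in RNA with none lower.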
